A study of Mus musculus with 8 samples.

Results

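Keratin-associated protein genes (Krtap genes) were followed in dorsal skin of wild-type mouse embryos. The members are all genes whose single symbol in the probe annotation begins with Krtap: 38 genes, measured by 43 probesets, of 18193 genes with a symbol of their own among 45101 probesets. Each probeset is a set of short oligonucleotides that reports the transcripts it matches, in some cases those of several genes. The study hybridised total RNA of whole dorsal skin to 8 Affymetrix mouse genome arrays, to follow epidermal differentiation. There were 2 arrays for embryonic day 14.5 (E14.5) and 3 each for E16.5 and E18.5. All 8 samples carry the wild-type genotype and no treatment, and no strain or sex is given in the labels. No label says that the arrays of a stage came from separate embryos, so every p-value below measures the spread between these arrays, which may be technical. Replicate numbers are names and pair no arrays across stages.

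Keratin-associated proteins are small proteins that fill the space between the keratin filaments of the hair shaft, where their cysteines form disulfide bonds with the hair keratins. They fall into classes by composition: high sulfur and ultra-high sulfur proteins, which are rich in cysteine, and high glycine-tyrosine proteins. The genes lie in clusters, have a single exon, and are known to be transcribed late in hair shaft differentiation, in the cortex and the cuticle, after the shaft keratins. In embryonic dorsal skin, follicles form in successive waves, so follicles of different maturity stand side by side in one sample.

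By subfamily number, 10 members are of the high sulfur class, 12 of the ultra-high sulfur class and 13 of the high glycine-tyrosine class; the class of Krtap16-3, Krtap28-13 and Krtap31-1 was not settled. On mouse chromosomes, 20 members lie on chromosome 16, 10 on chromosome 11, 5 on chromosome 7, 2 on chromosome 10 (Krtap10-4 and Krtap12-1) and 1 on chromosome 1 (Krtap28-13). Members of a subfamily have near-identical copies and can share probe sequence, so the values of single members are uncertain.

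Values are the deposited signals, on a linear scale. Background came from olfactory and vomeronasal receptors, genes of the nose taken to be mostly silent in skin, which was not tested. They had 80 probesets, 44 of them Olfr, whose 95th percentile was taken array by array. It lay between 43.9 and 45.7 at E14.5, between 33.6 and 53.2 at E16.5 and between 62.2 and 92.2 at E18.5. Between 12186 and 13820 genes lay above it on an array. The E14.5 arrays differed from the others in their controls: the ratio of the 3′ to the 5′ actin control probeset was 6.49 and 6.91 there and 1.11 to 1.37 on the other arrays. The bioB spike-in read 4093 and 4535 at E14.5 and 315 to 416 elsewhere. For every difference from E14.5, stage and array preparation cannot be told apart. The summed signal of a list of liver genes was 83887 on E14.5 replicate 1, 326 on replicate 2, and 92.4 to 453 on the other arrays. The summed dermis list, with 7 of its 8 genes measured, ran from 66729.9 to 173156, and all 7 lay above background on every array. The epidermis list ran from 56927 to 187646, with 10 of 10 genes above background on every E16.5 and E18.5 array and 9 of 10 at E14.5.

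At every stage most Krtap genes were at or below background on at least 1 array. Counting genes above background on every array of a stage, E14.5 had 0 of 38, E16.5 had 5 and E18.5 had 4. The receptor probesets gave 2, 3 and 1 of 80. On at least 1 array of the stage the numbers were 1, 8 and 22 of 38. The 5 genes of E16.5 were Krtap10-4, Krtap12-1, Krtap13, Krtap19-1 and Krtap19-4, and the 4 of E18.5 were Krtap10-4, Krtap12-1, Krtap17-1 and Krtap19-1. Above background on no array were 15 genes: 2 high sulfur, 5 ultra-high sulfur and 6 high glycine-tyrosine genes, and 2 of unsettled class. The stage of the highest mean signal was E18.5 for 31 genes, E16.5 for 3 and E14.5 for 4. In whole skin, fewer cells of a type and less RNA per cell cannot be told apart.

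**Figure D1:**
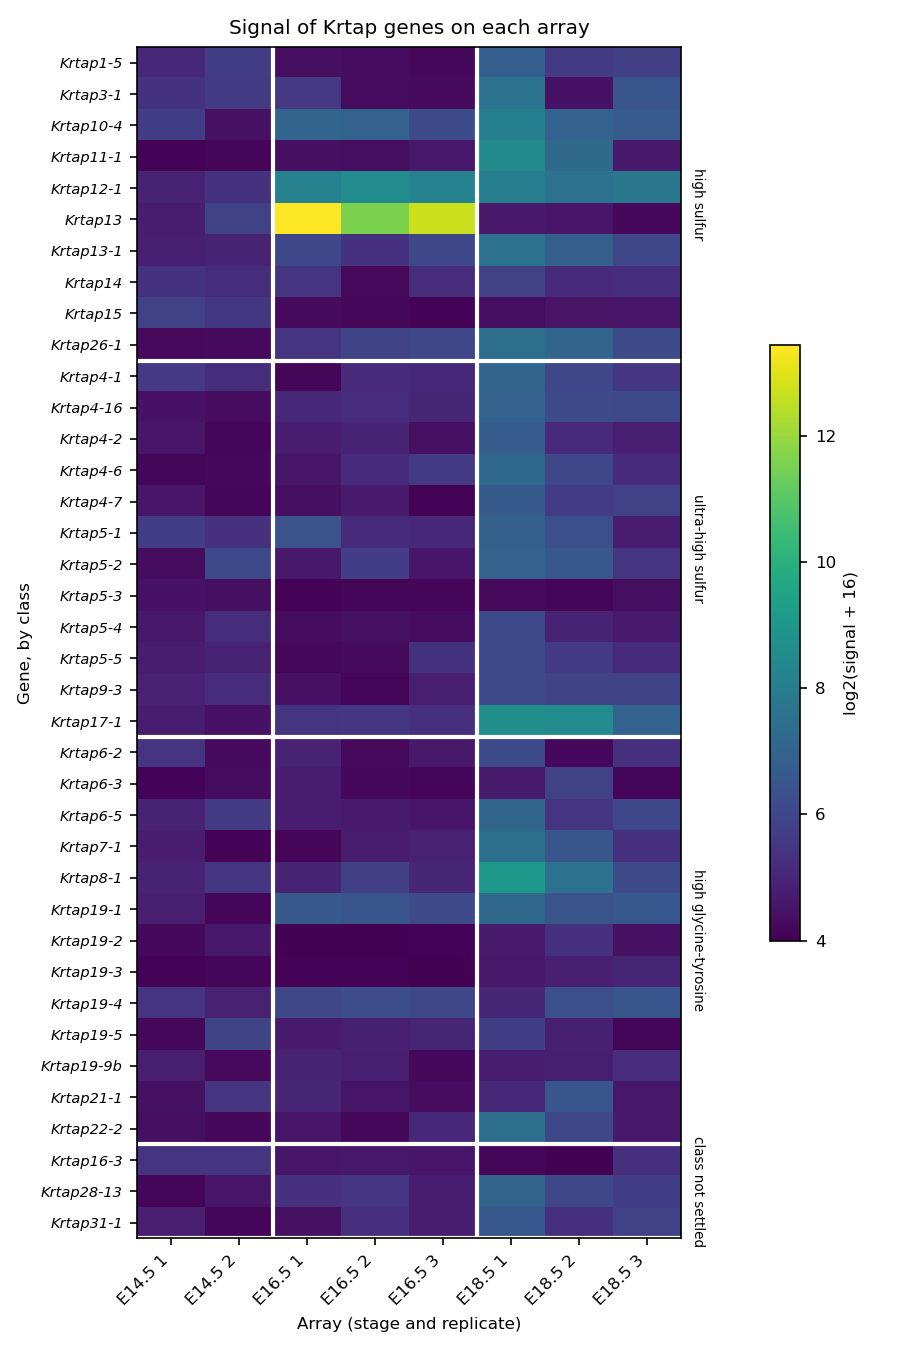
Signal of the 38 Krtap genes (rows, grouped by class) on the 8 arrays (columns, stage and replicate), as log2(signal + 16) in colour; white lines part the stages and classes. Krtap13 stands out on the 3 E16.5 arrays, and most other bright cells lie in the E18.5 columns, above all in that of replicate 1.

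Krtap13, a high sulfur gene of chromosome 16, gave signals of 11145, 3018 and 6554 on the 3 E16.5 arrays. It read 10.5 and 41.7 at E14.5 and 9.06, 7.82 and 2.51 at E18.5, below background on all 5 arrays. The E16.5 arrays were thus high and did not overlap with either neighbouring stage. The mean was 26.1 ± 22 (SD, n = 2) at E14.5, 6906 ± 4075 (SD, n = 3) at E16.5 and 6.46 ± 3.48 (SD, n = 3) at E18.5. On log2(signal + 16), the scale of every log2 change below, it rose by 7.27 ± 0.50 (SE) from E14.5 to E16.5 (limma, Benjamini-Hochberg adjusted p = 8.09e-07 over all 18193 genes). It then fell by 8.09 on the same scale (SE 0.45, limma adjusted p = 4.84e-05). Where a dimmer array lay at or below background, a fold change is given as a lower bound. The background then stands in place of the dim signal. Arrays of the brighter stage kept their signals even below background, and where some lay there the bound is not firm. By that measure the signal of Krtap13 was at least 99.7-fold higher at E16.5 than at E14.5 and at least 64.7-fold higher than at E18.5. A call here and below is a limma adjusted p under 0.05.

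2 genes beside Krtap13, chosen after their values were seen, had the same profile. They are 2310034C09Rik and 2310057N15Rik, which are no members by symbol. Among the genes with a probeset, they follow Krtap13 directly in the RefSeq gene order (GRCm38.p6). RefSeq lists Krtap13-1 as a synonym of 2310057N15Rik, and another member has that name as its symbol. 2310034C09Rik read 10486, 3647 and 6411 at E16.5, against 6.10 and 131 at E14.5 and 46.5, 38.3 and 56.1 at E18.5. It was above background on 1 of the 5 arrays outside E16.5. The rise to E16.5 was 6.78 ± 0.67 on the log2 scale (at least 66.8-fold, limma adjusted p = 9.22e-06), and by E18.5 the signal fell by 6.65 (SE 0.60, at least 67.0-fold, adjusted p = 0.000375). 2310057N15Rik read 5118, 1076 and 2853 at E16.5 and between 3.47 and 5.67 on the other 5 arrays. Its rise was 7.01 ± 0.52 (at least 41.5-fold, limma adjusted p = 1.29e-06) and its later change -6.91 ± 0.47 (at least 27-fold, adjusted p = 0.000119). All 3 genes were highest on E16.5 replicate 1 and lowest on E16.5 replicate 2 among the arrays of that stage. Among the 18193 genes, these 3 were the only ones called in both steps with a rise and a fall of at least 4 units each on the log2(signal + 16) scale. How much of this likeness comes from probes that read more than 1 of the 3 transcripts was not tested.

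The starts of these 3 genes are shown because they carry the one strong Krtap signal. For comparison, 3 further members are shown: Krtap13-1, the measured neighbour of Krtap13 on its other side, and Krtap17-1 and Krtap8-1, which rose at E18.5. Each line gives the 250 bases before the gene's start, from the RefSeq promoter table (GRCm38.p6), 5′ to 3′ on the gene's strand; capitals mark each TATAAA on that strand, the letters of a TATA box. The windows are chr16:88751629-88751878 (minus strand) for Krtap13, chr16:88758597-88758846 (plus) for 2310034C09Rik, chr16:88774207-88774456 (minus) for 2310057N15Rik, chr16:88728612-88728861 (plus) for Krtap13-1, chr11:99993995-99994244 (minus) for Krtap17-1 and chr16:89487953-89488202 (minus) for Krtap8-1.
Krtap13: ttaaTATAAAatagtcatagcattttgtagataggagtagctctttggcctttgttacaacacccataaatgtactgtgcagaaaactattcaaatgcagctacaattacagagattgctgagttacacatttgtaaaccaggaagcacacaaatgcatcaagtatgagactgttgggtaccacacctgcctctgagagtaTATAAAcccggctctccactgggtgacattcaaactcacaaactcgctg
2310034C09Rik: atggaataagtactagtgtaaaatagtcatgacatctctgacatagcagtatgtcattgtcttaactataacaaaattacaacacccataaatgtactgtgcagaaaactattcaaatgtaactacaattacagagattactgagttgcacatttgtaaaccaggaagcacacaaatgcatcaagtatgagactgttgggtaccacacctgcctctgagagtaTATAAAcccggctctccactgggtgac
2310057N15Rik: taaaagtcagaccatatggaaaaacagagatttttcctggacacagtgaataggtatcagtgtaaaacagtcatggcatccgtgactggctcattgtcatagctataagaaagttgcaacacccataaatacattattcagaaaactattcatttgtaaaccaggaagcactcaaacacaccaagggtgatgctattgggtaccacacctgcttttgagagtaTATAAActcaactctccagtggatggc
Krtap13-1: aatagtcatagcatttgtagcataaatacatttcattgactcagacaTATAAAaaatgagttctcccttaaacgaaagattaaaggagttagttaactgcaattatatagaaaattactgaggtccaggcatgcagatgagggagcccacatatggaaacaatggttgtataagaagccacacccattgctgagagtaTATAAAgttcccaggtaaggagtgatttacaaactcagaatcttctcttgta
Krtap17-1: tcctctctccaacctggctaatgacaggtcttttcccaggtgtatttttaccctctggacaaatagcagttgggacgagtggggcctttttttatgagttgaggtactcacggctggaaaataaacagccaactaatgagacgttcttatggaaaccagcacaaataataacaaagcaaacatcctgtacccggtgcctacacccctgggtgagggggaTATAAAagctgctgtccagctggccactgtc
Krtap8-1: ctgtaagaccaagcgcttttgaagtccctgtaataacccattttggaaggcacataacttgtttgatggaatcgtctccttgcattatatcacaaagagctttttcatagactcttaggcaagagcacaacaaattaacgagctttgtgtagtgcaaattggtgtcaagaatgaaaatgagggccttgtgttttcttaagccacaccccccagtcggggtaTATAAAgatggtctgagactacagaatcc

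The last TATAAA began 49 bases before the annotated start in Krtap13, 27 in both 2310034C09Rik and 2310057N15Rik, 52 in Krtap13-1, 31 in Krtap17-1 and 29 in Krtap8-1. Krtap13 and 2310034C09Rik shared an identical run of 102 bases around it. Over an 85-base window placed on the last TATAAA and starting 60 bases before it, Krtap13 was 100% identical to 2310034C09Rik and 81.2% identical to 2310057N15Rik. For the 25 other Krtap genes with such a window, the identity to Krtap13 ran from 24.7% to 49.4%, with a median of 34.1% and the highest value in Krtap26-1. Within this window both neighbours were thus closer to Krtap13 than any of these 25 was. Over the whole 250 bases, aligned with gaps, the identity to Krtap13 was 77.3% for 2310034C09Rik, 59.4% for 2310057N15Rik and 58.4% for Krtap13-1, the highest of the other 35 members, whose median was 52%. Over that length 2310057N15Rik, with a longest shared run of 21 bases, was thus close to Krtap13-1. Krtap13-1 shared a run of 16 bases with Krtap13 in the whole 250 bases, the longest among the other 35 members.

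A promoter was listed for 36 of the 38 members. TATAAA stood in 28 of the 36 (77.8%) on either strand of the 250 bases, and in 13% of 27025 mouse promoters of the same length. On the gene's own strand within the last 60 bases before the start it stood in 26 of 36 (72.2%), against 3.15% of all promoters. TTTAC, the core letters bound by Hox proteins such as Hoxc13, stood on either strand in 19 of 36 (52.8%) and in 28.6% of all promoters. CTTTG, the core letters bound by Lef1 and its relatives, stood in 23 of 36 (63.9%) and in 48.8% of all. Matches of different motifs can share bases, and a match is a description of letters, not of binding.

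**Figure D2:**
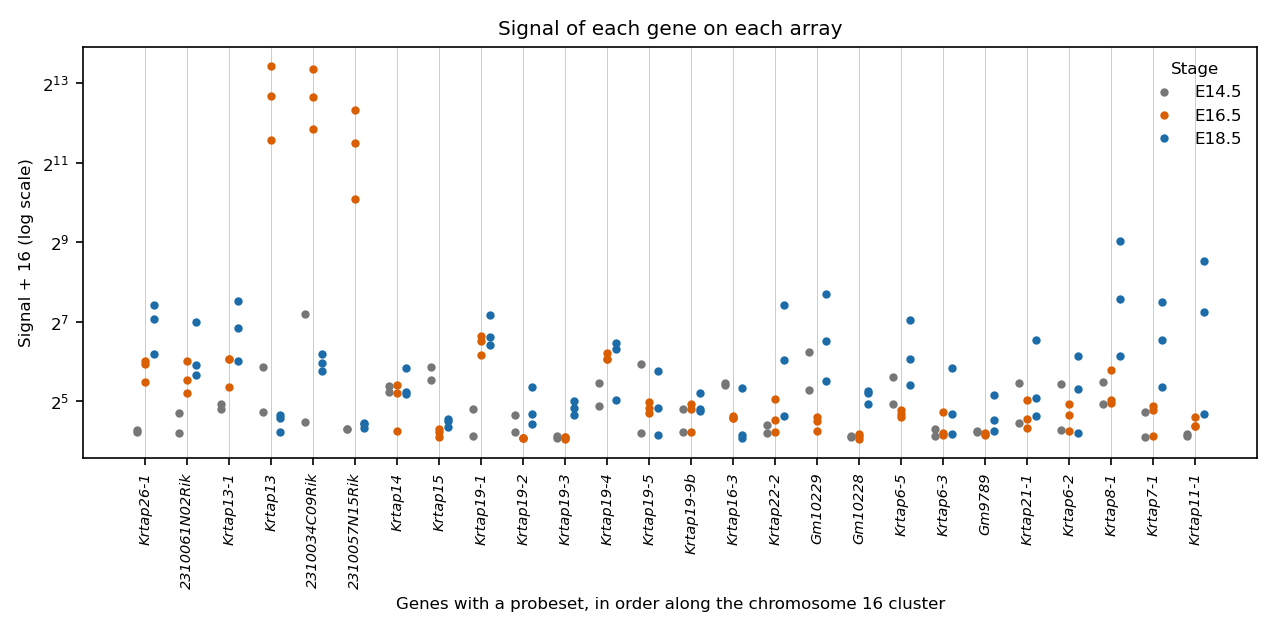
Signal + 16 (log axis) on each array for the 26 genes with a probeset of their own between Krtap26-1 and Krtap11-1 on chromosome 16, in RefSeq order; grey points are the 2 E14.5 arrays, orange the 3 E16.5 arrays and blue the 3 E18.5 arrays. Krtap13 and its 2 neighbours stand far above the others at E16.5, and Krtap8-1 and Krtap11-1 have the highest E18.5 points.

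The chromosome 16 cluster from Krtap26-1 to Krtap11-1 holds 56 protein-coding genes in RefSeq. Among all genes listed there, 26 had a probeset of their own: the 20 members on that chromosome and 6 others. On every E16.5 array, 5 of the 26 lay above background: Krtap13, its 2 neighbours, Krtap19-1 and Krtap19-4. Outside the first 3, the highest E16.5 mean was 71.3, that of Krtap19-1. In the plot of the cluster in gene order, the high E16.5 points belong to these 3 genes, adjacent among those with a probeset. Krtap13-1, on the other side of Krtap13, read 50.7, 25 and 50.1 at E16.5.

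From E16.5 to E18.5, 8 of 38 Krtap genes rose, 1 fell and 29 were not called. Over all genes tested 7.28% were called higher and 5.58% lower (12.9% in either direction), and of the 71 receptor genes 4 were called higher and 0 lower. The arrays of the 2 stages did not overlap for 17 Krtap genes that were higher and 2 that were lower at E18.5, beside 24.1% and 14.5% of all genes. The median Krtap change was 0.93 log2 units, against 0.12 for all genes and 0.37 for the receptor genes. The change was above 0 for 34 of 38 Krtap genes (89.5%), 63 of 71 receptor genes (88.7%) and 60.3% of all genes; the share above 0 thus was close to that of the receptors, whose background also rose. Scaling changed the counts: 4 higher and 1 lower after quantile normalization, 7 and 1 after centring each array on its median, and 6 and 2 after centring on the receptor probesets, when Krtap12-1 was the further gene called lower. Leaving out 1 array moved the 8 to between 2 (without E16.5 replicate 1 or replicate 3) and 13 (without E18.5 replicate 3), with 3 without E16.5 replicate 2 and 5 without E18.5 replicate 1. Over all genes the calls in either direction moved too, from 2340 to 2021 after quantile normalization, 2530 after median centring and 5130 after receptor centring. Receptor centring thus raised the calls over all genes, while those of the Krtap genes did not rise in total. Without E16.5 replicates 1, 2 and 3 in turn the calls over all genes were 987, 1005 and 758. Without E18.5 replicates 1, 2 and 3 in turn they were 1966, 1919 and 2551.

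**Figure D3:**
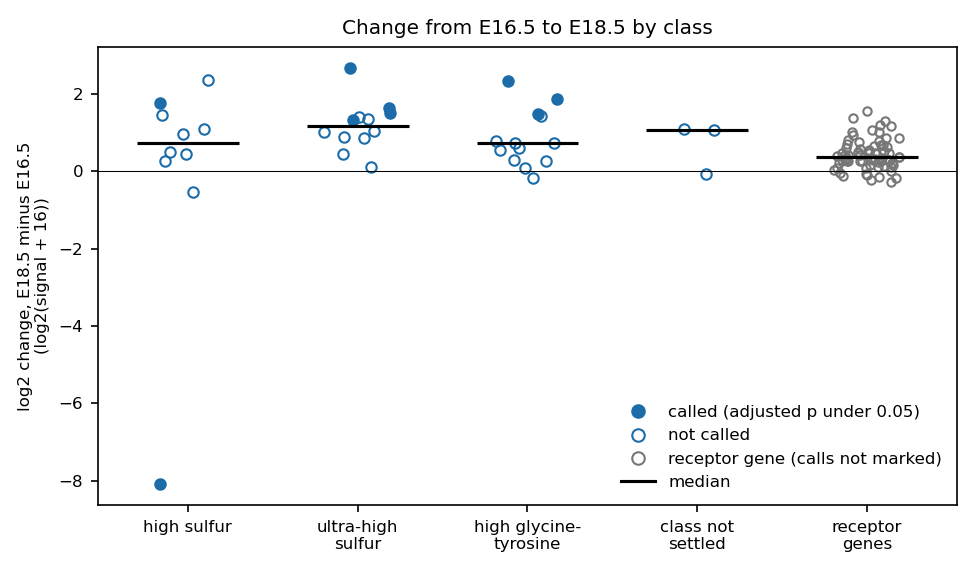
Change from E16.5 to E18.5 of each Krtap gene by class and of each receptor gene, as a difference of log2(signal + 16); filled points are called genes, open points are not called, grey points are receptor genes without call marks, and bars are medians. The ultra-high sulfur median is 1.18 and all 12 of its genes are above 0; Krtap13 stands alone at -8.09.

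Among the ultra-high sulfur genes, whose proteins are the richest in cysteine, 4 of 12 rose, 0 fell, and all 12 changes were above 0, with a median of 1.18. Krtap17-1 gave 397, 357 and 108 at E18.5, 26.6, 28.8 and 22.2 at E16.5, and 10.8 and 6.13 at E14.5. All 3 E18.5 arrays were above background and no other array was. The change from E16.5 was 2.68 ± 0.43 (SE), at least 4.58-fold (limma adjusted p = 0.0046). Krtap4-16 gave 111, 57 and 51.9 at E18.5, above background on 1 array only, and 18.1, 20.5 and 16.3 at E16.5. The stages did not overlap, and the change was 1.32 ± 0.31, at least 1.47-fold (limma adjusted p = 0.022). It was not called after quantile normalization (0.94, adjusted p = 0.0871) or without any 1 of the E16.5 arrays (adjusted p from 0.0688 to 0.0962). Krtap4-7 gave 85.1, 33.4 and 41.7 at E18.5 and 5.10, 9.66 and 1.25 at E16.5. Krtap9-3 gave 51.6, 44.6 and 44.7 at E18.5 and 5.34, 2.01 and 11.9 at E16.5. Both were called, with changes of 1.65 ± 0.34 (limma adjusted p = 0.014) and 1.51 ± 0.29 (adjusted p = 0.00919), yet neither was above background on any array, so no fold is given. Krtap4-7 lost its call without E16.5 replicate 1 (adjusted p = 0.0544) or replicate 3 (0.0731), whereas Krtap17-1 and Krtap9-3 were called in every alternative in which they were tested; the filter on genes above background on 2 arrays leaves Krtap9-3 out.

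The other 8 ultra-high sulfur genes were not called. Krtap4-6 read 134, 50.8 and 18.9 at E18.5 and 7.68, 19.1 and 32.3 at E16.5, so the stages overlapped. Krtap4-1 read 116, 50.5 and 29.3 against 1.90, 19.5 and 17.6, with no overlap and an adjusted p of 0.0593 (limma). Krtap4-2, Krtap5-1, Krtap5-2, Krtap5-4 and Krtap5-5 were each highest on E18.5 replicate 1, at 51.3 to 109, and overlapped with E16.5 in 4 of the 5. Krtap5-3 stayed between 1.28 and 6.23 on all 8 arrays.

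Of the 13 high glycine-tyrosine genes, 3 rose and 0 fell, with a median change of 0.74. Proteins of this class are known as early Krtap proteins of the cortex. Krtap8-1 gave 509, 175 and 54.7 at E18.5, 14.8, 39.2 and 16.7 at E16.5, and 14.6 and 28.6 at E14.5. The 3 E18.5 arrays stood above all others, but the lowest of them was below background. The change from E16.5 was 2.33 ± 0.61, at least 3.29-fold (limma adjusted p = 0.0343). Krtap7-1 gave 165, 76.9 and 25 at E18.5 and 1.37, 11.3 and 13.1 at E16.5, a change of 1.88 ± 0.50, at least 1.51-fold (limma adjusted p = 0.0359). Krtap6-5 gave 115, 26.4 and 50.1 at E18.5, above background on 1 array only, and 11.2, 9.48 and 8.02 at E16.5. Its change was 1.49 ± 0.41, at least 1.23-fold (limma adjusted p = 0.0408). In all 3 the E18.5 arrays did not overlap with E16.5, and replicate 1 was the highest. These 3 calls were the least stable of the 8. Without E18.5 replicate 1 they were 1.61 (limma adjusted p = 0.0711), 1.36 (0.0851) and 1.05 (0.0846). Leaving out any 1 E16.5 array also ended each call, with adjusted p from 0.0641 to 0.136, as did quantile normalization (0.0847 to 0.111). Krtap8-1 and Krtap7-1 lost the call without E18.5 replicate 2 (0.0787 and 0.0826), and Krtap6-5 without replicate 3 (0.0643).

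Krtap22-2, near the Krtap6 genes in the same cluster, read 156, 49.7 and 8.77 at E18.5 and 6.97, 2.51 and 17.2 at E16.5 and was not called. Krtap19-1 read 127, 69.1 and 81.2 at E18.5 and 83.5, 75.2 and 55.2 at E16.5, and Krtap19-4 read 16.7, 63.1 and 72.6 against 50.9, 58.3 and 50.1. Both overlapped between these stages and neither was called. Krtap19-3 read 8.91, 12.4 and 15.9 at E18.5 and 1.12, 1.13 and 0.431 at E16.5, all below background. The other 6 genes of the class lay between 0.631 and 76.6 on all arrays, and the single value above background among them at E18.5 was that of Krtap21-1 on replicate 2.

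Among the 10 high sulfur genes, 1 rose and 1, Krtap13, fell; the median change was 0.73. Krtap1-5, a gene of the chromosome 11 cluster, gave 97.1, 32.1 and 39.1 at E18.5, above background on 1 array only, and 4.77, 3.75 and 2.65 at E16.5. The stages did not overlap, and the change was 1.76 ± 0.37, at least 1.15-fold (limma adjusted p = 0.0143). It was not called without any 1 of the E16.5 arrays (adjusted p from 0.0513 to 0.066). Krtap11-1, a cortex gene at one end of the chromosome 16 cluster, gave 349.9, 136 and 9.32 at E18.5 and 4.82, 4.57 and 8.32 at E16.5. The groups did not overlap, but replicate 3 was close to the highest E16.5 array, and the change of 2.36 ± 0.76 was not called (limma adjusted p = 0.0698). Krtap26-1, at the other end, gave 156, 118 and 56.8 against 28.4, 45 and 48 and was not called either (1.09 ± 0.36, adjusted p = 0.0711). Krtap13-1 gave 168, 99.3 and 47.9 at E18.5 (change 0.97 ± 0.40, adjusted p = 0.138).

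2 high sulfur genes of chromosome 10 had a level of their own already at E16.5. Krtap12-1, of a subfamily known from the hair cuticle, gave 263, 361 and 278 at E16.5 and 247, 168 and 197 at E18.5. The E18.5 arrays were the lower ones without overlap, and the difference of -0.53 was not called. Krtap10-4, of another cuticle subfamily, gave 121, 110.0 and 56.6 at E16.5 and 256, 109 and 88.2 at E18.5, with overlap and no call. Of the remaining high sulfur genes, Krtap3-1 read 176, 6.01 and 73.2 at E18.5, Krtap14 read 3.08 to 40.6 on all 8 arrays, and Krtap15 never exceeded background. Of the 3 genes of unsettled class none was called: Krtap28-13 read 112, 48.7 and 38.6 at E18.5 against 24.4, 27.9 and 10.3, Krtap31-1 read 78.5, 22.5 and 40.5 against 5.49, 23 and 10.2, and Krtap16-3 read 0.747 to 27.8 on all arrays.

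By chromosome, 5 of the 10 members on chromosome 11 rose from E16.5 to E18.5, with a median change of 1.43. They were Krtap1-5, Krtap4-7, Krtap4-16, Krtap9-3 and Krtap17-1. Over all genes 7.28% were called higher and 5.58% lower. Of the 5, only Krtap17-1 was above background on every E18.5 array, and Krtap4-7 and Krtap9-3 were above it on none. On chromosome 16, 3 of 20 rose and 1 fell, with a median of 0.68, and none of the 3 was above background on every E18.5 array. On chromosome 7, which holds the 5 Krtap5 genes, 0 of 5 were called. The difference between chromosomes was not tested.

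From E14.5 to E16.5, 5 of 38 Krtap genes rose and 2 fell, while over all genes 37.1% were called higher and 20.8% lower (57.9% in either direction). The arrays did not overlap for 12 Krtap genes that were higher and 9 that were lower at E16.5, beside 46.2% and 27.9% of all genes. The Krtap median change was 0.04, that of all genes 0.29, and that of the receptor genes -0.12 with 4 higher and 4 lower of 71. Besides Krtap13, the rising genes were the chromosome 10 pair, Krtap19-1 and Krtap26-1. Krtap12-1 read 14.1 and 25.7 at E14.5, below all 3 E16.5 arrays, and rose by 3.15 ± 0.28 (at least 5.16-fold, limma adjusted p = 4.7e-06). Krtap10-4 read 37.2 and 5.51 and rose by 1.67 ± 0.52 (at least 1.77-fold, limma adjusted p = 0.0181); leaving out E14.5 replicate 2 gave a rise of 1.02 (adjusted p = 0.171), and leaving out either of the first 2 E16.5 arrays ended the call (0.0593 and 0.0546). Krtap19-1 read 12 and 1.49 and rose by 1.97 ± 0.36 (at least 1.42-fold, limma adjusted p = 0.00078), while its second probeset, below background on every array, gave 0.39. Krtap26-1 read 2.76 and 3.21 and rose by 1.55 ± 0.40 (limma adjusted p = 0.00644), with only 1 of its 3 E16.5 arrays above background. Krtap19-4 read 28.1 and 13.5 at E14.5 and was not called.

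The 2 genes that fell were below background on every array of both stages. Krtap15 read 41.9 and 30.2 at E14.5 and 3.56, 2.56 and 1.04 at E16.5 (change -1.50 ± 0.29, limma adjusted p = 0.0012). Krtap1-5 read 16.8 and 36.7 at E14.5 (change -1.08 ± 0.41, limma adjusted p = 0.0464). That call was lost without E14.5 replicate 2 (-0.73, adjusted p = 0.251), without any 1 E16.5 array (0.0839 to 0.107) and without E18.5 replicate 3 (0.051). The direction of the list depended on the scaling: centring on the array median gave 3 higher and 11 lower, quantile normalization 4 and 4, and receptor centring 5 and 2. Over all genes the calls in either direction were 10526 without scaling, and 11078, 9820 and 10557 after these scalings. Krtap26-1 and Krtap10-4 were not called as higher under median centring (0.70 and 0.82), and the calls of Krtap13, Krtap12-1 and Krtap19-1 held under all 3 scalings.

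From E14.5 to E18.5, 17 of 38 Krtap genes rose and 1 fell, beside 41.7% and 19.5% of all genes (61.2% in either direction). Without overlap, 19 Krtap genes were higher and 4 lower at E18.5, beside 48.3% and 22.3% of all genes. By either measure the share of Krtap genes that were higher was thus close to that of all genes. Of the receptor genes, 10 rose and 3 fell. The Krtap median was 0.86, that of all genes 0.51 and that of the receptors 0.34. The 17 were 5 high sulfur, 5 ultra-high sulfur and 5 high glycine-tyrosine genes and 2 of unsettled class. All of them were below background on at least 1 E14.5 array, so the order of their log2 changes depends on the pseudocount. Krtap17-1 rose by 3.46 ± 0.48 (at least 4.40-fold, limma adjusted p = 0.000117). Also called were Krtap11-1, which read 1.22 and 2.04 at E14.5 (2.67 ± 0.85, at least 1.85-fold, adjusted p = 0.0193), Krtap26-1 (2.65 ± 0.40, at least 1.96-fold, adjusted p = 0.000197) and Krtap12-1 (2.62 ± 0.28, at least 3.58-fold, adjusted p = 1.85e-05). Krtap8-1 rose by 2.38 ± 0.69 (at least 3.16-fold, adjusted p = 0.0117), Krtap19-1 by 2.26 ± 0.36 (at least 1.74-fold, adjusted p = 0.000296) and Krtap10-4 by 2.17 ± 0.52 (at least 2.51-fold, adjusted p = 0.0042). These 7 genes come from all 3 sulfur and glycine-tyrosine classes. The scaling changed the split to 5 higher and 4 lower under median centring, 11 and 2 under quantile normalization and 13 and 2 under receptor centring. Over all genes the calls in either direction were 11129 without scaling, and 10702, 9814 and 10380 after these scalings.

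Further rises were those of Krtap7-1, which read 10.2 and 1.11 at E14.5 (2.06 ± 0.56, at least 1.45-fold, limma adjusted p = 0.00857), Krtap4-16, at 6.08 and 4.14 (2.02 ± 0.35, at least 1.41-fold, adjusted p = 0.0005), and Krtap4-6, at 1.28 and 2.31 (1.99 ± 0.55, at least 1.16-fold, adjusted p = 0.00989). Krtap13-1, at 12 and 14.6, rose by 1.92 ± 0.45 (at least 1.82-fold, adjusted p = 0.00358), and Krtap28-13, at 1.46 and 8.03, by 1.90 ± 0.43 (at least 1.26-fold, adjusted p = 0.00289). Krtap22-2, at 4.86 and 2.29, rose by 1.75 ± 0.66 (at least 1.08-fold, limma adjusted p = 0.0414). Krtap4-16, Krtap4-6, Krtap28-13 and Krtap22-2 were each above background on only 1 E18.5 array. The other 4 that rose were at or below background on every E14.5 and every E18.5 array, so no fold is given. They were Krtap4-7, at 7.88 and 1.66 (1.69 ± 0.39, limma adjusted p = 0.00321), and Krtap31-1, at 11.6 and 1.49 (1.43 ± 0.45, adjusted p = 0.0175). With them were Krtap9-3, at 13.1 and 21.6 (0.93 ± 0.32, adjusted p = 0.0273), and Krtap19-3, at 0.911 and 1.45 (0.72 ± 0.28, adjusted p = 0.0491). Krtap15, at 4.31, 6.59 and 7.47 at E18.5, was the gene that fell (-1.23 ± 0.29, limma adjusted p = 0.00394). Krtap6-5, at 14.6 and 32.7, was not called.

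Several of these calls rested on single arrays. Krtap11-1 lost its call when either E14.5 array was left out (adjusted p = 0.081 and 0.0735), as it did with E18.5 replicate 1 (1.82, 0.0536) or replicate 2 (0.0592) left out. Krtap22-2 lost it without any array but E18.5 replicate 3, with 1.05 and an adjusted p of 0.103 without E18.5 replicate 1. Krtap31-1 was not called without E14.5 replicate 2 (0.12) or E18.5 replicate 1 (0.0503), Krtap9-3 without E14.5 replicate 1 (0.128) or E18.5 replicate 1 (0.0516), Krtap8-1 without E14.5 replicate 1 (0.0772) and Krtap7-1 without E14.5 replicate 2 (0.0662). Among the fits that each left out 1 array, Krtap19-3 kept its call only without E18.5 replicate 1.

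The 3 E18.5 arrays differed among themselves in the Krtap genes. Of the 38 genes, 29 (76.3%) were highest on replicate 1, against 43.0% of all genes and 39.4% of the receptor genes, and 22 were lowest on replicate 3. Replicate 1 was the highest array for 9 of 10 high sulfur genes, 11 of 12 ultra-high sulfur genes and 7 of 13 high glycine-tyrosine genes, and for 10 of 10 members on chromosome 11. The numbers of Krtap genes above background were 20, 13 and 4 on replicates 1, 2 and 3. Without Krtap13, the summed Krtap signal was 4231, 2212 and 1393 on these 3 arrays, 854 to 1035 at E16.5 and 498 to 557 at E14.5. All 3 E18.5 sums were above those of the earlier stages, and so was the receptor background. The median receptor signal was 23.4, 18.3 and 23.5 on the E18.5 arrays and 9.72 to 14.1 before. The median Krtap signal was 95, 42.7 and 24.5 at E18.5, so on replicate 3 it was close to the receptor median.

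Hair shaft keratins, the partners of the Krtap proteins in the shaft, differed between the E18.5 arrays in the same order. The summed signal of 12 measured shaft keratins was 5566, 2498 and 1306 on replicates 1, 2 and 3, and 11 of the 12 were highest on replicate 1. For 14 genes of the inner root sheath and companion layer, which surround the shaft, the sums were 47169, 24218 and 13465, and 12 of the 14 were highest on replicate 1. The dermis list went the other way, with 145195, 159600 and 173156, and the epidermis list read 186872, 187646 and 181444. Other hair lists differed less: 17 genes of shaft crosslinking and the cuticle summed to 41278, 41505 and 33546, with replicate 2 highest. The 13 measured shaft regulators summed to 15450, 12158 and 12061. The melanocyte list followed the order of the shaft keratin and inner root sheath lists, with 14284, 11404 and 9340 and 6 of 8 genes highest on replicate 1. The skeletal muscle list was lowest on replicate 2 for 8 of 8 genes. The median difference of replicate 1 from replicate 3 was 0.96 log2 units for the Krtap genes, 2.18 for the shaft keratins, 2.11 for the inner root sheath list, -0.25 for the dermis list, 0.17 for the epidermis list, 0.71 for the melanocyte list, 0.42 for the adipocyte list, 0.58 for the liver list, -0.27 for the muscle list, -0.07 for the neural list, 0.14 for the receptor genes and 0.07 for all genes. For the crosslinking and cuticle list this difference was 0.66, and for the shaft regulators 0.55. The part of follicle number or maturity in these differences was not tested.

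**Figure D4:**
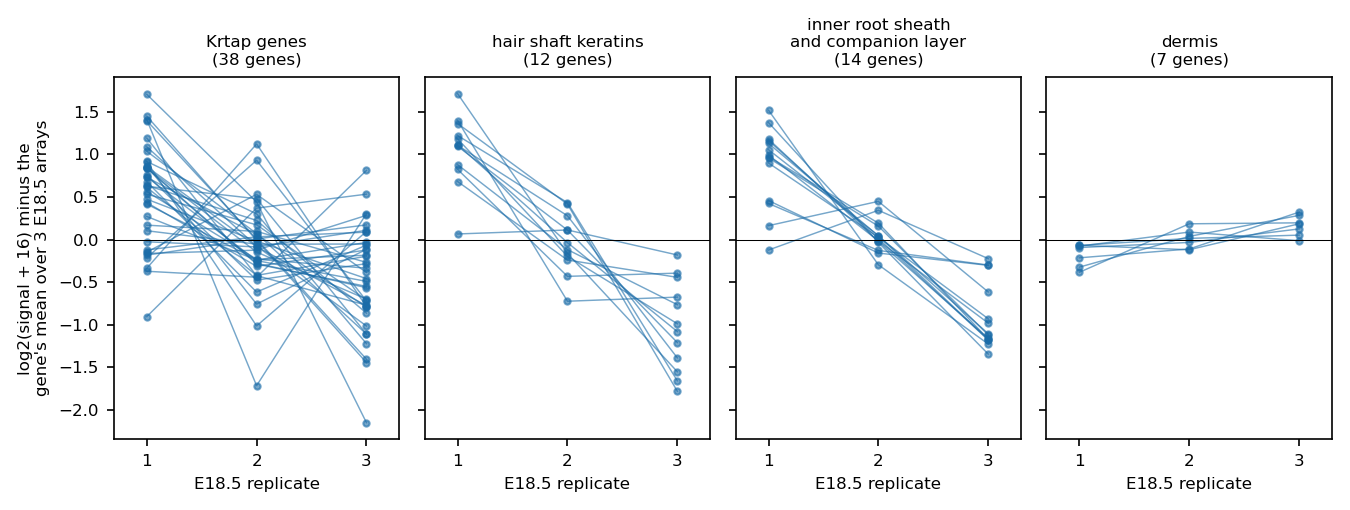
Each line is 1 gene on the 3 E18.5 arrays, as log2(signal + 16) minus the gene's mean over the 3 arrays, for 38 Krtap genes, 12 hair shaft keratins, 14 inner root sheath and companion layer genes and 7 dermis genes; replicate numbers are names with no order. The first 3 panels are highest on replicate 1 for most genes (29 of 38, 11 of 12 and 12 of 14), and the dermis panel is not.

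Other genes of the hair shaft programme give the level against which the Krtap changes stand. From E16.5 to E18.5, 5 of 12 shaft keratins rose and 0 fell, with a median of 1.44. Krt35, an early shaft keratin, went from 16.4, 50.8 and 14 to 2340.0, 1047 and 499.7 (4.76 ± 0.51, at least 18.6-fold, limma adjusted p = 0.000807), and Krt33a (2.89 ± 0.64, adjusted p = 0.0178) and Krt31 (2.79 ± 0.63, adjusted p = 0.0197), keratins of the cortex, rose too. Krt33a and Krt31 each lay above background on only 2 E18.5 arrays. Krt33a lost its call with any 1 E16.5 array or E18.5 replicate 2 left out (0.0568 to 0.0683), and Krt31 with E16.5 replicate 1 or 2 or E18.5 replicate 1 or 2 left out (0.0554 to 0.0765) or after quantile normalization (0.061). Of the inner root sheath and companion list, 9 of 14 rose and 1 fell, with a median of 3.52; Krt25 went from 11.9, 7.69 and 4.01 to 11289, 5315 and 2274 (at least 88.5-fold, limma adjusted p = 0.000119). Of 17 genes for crosslinking and the cuticle, 7 rose and 2 fell, among them S100a3, a cuticle protein (3.36 ± 0.63, at least 7.74-fold, adjusted p = 0.0092). The Krtap median of 0.93 was below the medians of the keratin lists. Above background on every E18.5 array were 4 of 38 Krtap genes, 3 of 12 shaft keratins and 13 of 14 inner root sheath and companion genes. Above background on no array were 15 of 38 Krtap genes, 0 of 12 shaft keratins and 0 of 14 inner root sheath and companion genes. The part of such dim genes in the lower Krtap median was not tested. The difference between the lists was not tested.

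Of 13 regulators of the shaft, 4 rose and 2 fell from E16.5 to E18.5. Hoxc13, a homeobox factor required for shaft keratin and Krtap expression, read 238 and 161 at E14.5, 62.9, 123 and 106 at E16.5, and 582, 303 and 324 at E18.5. It was 3.65-fold higher at E18.5 than at E16.5 (1.87 ± 0.32, limma adjusted p = 0.00573), with the E18.5 arrays above all others. Msx2 (1.91 ± 0.35, adjusted p = 0.00772) and Lhx2 (1.93 ± 0.38, adjusted p = 0.0108), factors of the follicle matrix and bud, also rose, Lhx2 with an adjusted p of 0.0517 when E16.5 replicate 3 was left out and 0.0859 with a pseudocount of 1. Foxn1, the forkhead factor whose loss leaves hair shafts unable to pierce the skin, read 308, 289 and 309 at E16.5 and 300.1, 187 and 172 at E18.5 and was not called (-0.47 ± 0.43, adjusted p = 0.503).

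For 5 members a second probeset was on the array. The second of Krtap12-1 read 3.20 and 36.3 at E14.5, 95.7, 117 and 112 at E16.5 and 56.8, 61.4 and 72.6 at E18.5, the same order of stages as the first. The second of Krtap19-1 gave changes of 0.39 from E14.5 to E16.5 and 0.53 from E14.5 to E18.5, against 1.97 and 2.26 for the one used. That second probeset read 1.94 to 37.4 and lay below background on every array. The 2 probesets thus differ in the size of the changes called for this gene, and at that level the second cannot test them. The second probesets of Krtap5-1, Krtap6-3 and Krtap16-3 gave changes from E16.5 to E18.5 of 1.00, 0.16 and 0.00, against 0.44, 0.54 and -0.08 for the first.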

How the data were processed

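Signals were deposited by the authors as linear intensity values per probeset; Affymetrix Expression Console 1.1 and PLIER 2.0 are named per the submitters' processing notes, without their roles. Background correction and scaling by the authors: not given in the sources used here. The labels' protocols describe random-primed sense-strand DNA targets, made for whole-transcript arrays, whereas the probe table belongs to an array read from the 3′ end, which leaves the target preparation uncertain.

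Of 45101 probesets, 34958 carried 1 gene symbol, 932 several and 9211 none; without 64 control probesets, 34945 entered, and each of 18193 genes was read from its probeset with the highest mean log2 value. The deposited intensities, unscaled, were turned into log2(signal + 16). limma 3.58.1 (R 4.3.3; lmFit, eBayes with trend) fitted 1 mean per stage to all 8 arrays, and every adjusted p is from it, by Benjamini-Hochberg over all genes. The number of arrays limits the precision. The procedure was tested on simulated data.

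The members, lists and tests were chosen with earlier results of these data known. Classes follow subfamily numbers; subfamilies 28 and 31 were set aside as unsettled after the values were seen. Per-array values are given for members called in any contrast or above background on every array of a stage (22 genes); others are given by range, except Krtap3-1 and Krtap4-1, picked with their values known. Alternatives were other pseudocounts, scalings, background percentiles, probeset rules, variance models, a filter on dim genes and leaving out each array; centring on the receptor probesets was added after the data were seen. All 38 members matched RefSeq by gene ID and symbol.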

Additional observations from a re-analysis of the deposited data

Results flagged for a closer look

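Probesets whose annotation joins a Krtap symbol with other symbols are no members, and 6 such probesets were left out. 2 of them had signal above background. The probeset shared by Krtap9-1 and 3 predicted genes (Gm11559, Gm11567 and Gm11568) read 103, 97.5 and 85.2 at E18.5, above background on all 3 arrays, and 38.3, 25.2 and 23.2 at E16.5. A probeset shared by Krtap3-2 and Krtap3-3 read 264, 52.0 and 3.39 at E18.5, above background on replicate 1, and 14.2 and 61.9 at E14.5, above background on replicate 2. The source of the signal among the joined genes cannot be told apart.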

How the results depend on the processing

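No paired analysis was possible because the labels give no replicate number, and the codes in the titles are unexplained; some share a part across stages, and whether those arrays share a litter is not stated. Krtap13, Krtap17-1 and Krtap9-3 (E18.5 against E16.5), Krtap12-1, Krtap19-1, Krtap13 and Krtap15 (E16.5 against E14.5) and Krtap17-1, Krtap26-1, Krtap12-1, Krtap19-1, Krtap4-16 and Krtap15 (E18.5 against E14.5) were called in the same direction under every alternative in which the gene was tested, and so were 2310034C09Rik and 2310057N15Rik in both steps. The fall of Krtap13 ranged from -9.80 to -6.44 log2 units, with an adjusted p of at most 0.00128 (limma).

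The count of 8 Krtap genes higher at E18.5 than at E16.5 was 3 with only genes above background on 2 arrays (13 members tested) and 4 after quantile normalization; leaving out 1 array gave 2 to 13. The count of 1 lower was 2 after receptor centring and 1 without any 1 array. From E14.5 to E16.5, the 5 higher were 3 after median centring, 9 with only the arrays compared in the fit and 8 with a pseudocount of 1, and 4 to 7 without 1 array. The 2 lower were 0 with the filter, 11 after median centring, 4 after quantile normalization, 1 with a pseudocount of 64 and 1 with robust variances, and 1 to 2 without 1 array. From E14.5 to E18.5, the 17 higher were 9 with the filter, 5 after median centring and 11 after quantile normalization, and 12 to 17 without 1 array. The 1 lower was 0 with the filter, 4 after median centring and 2 after quantile normalization or receptor centring, and 1 to 2 without 1 array. Krtap19-3 and Krtap9-3 turned from higher to lower in that contrast under median centring (-0.30 and -0.093, limma adjusted p = 0.413 and 0.833). With the filter 14314 genes were tested, and 2461, 10278 and 10541 of them were called in either direction, in the order of the contrasts above. From E14.5 to E16.5 the calls over all genes were 11196 with only the arrays compared and 10666 with a pseudocount of 1. Fewer arrays or fewer genes tested set part of these counts. The cause of the other changes was not tested.

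The median change of all genes from E16.5 to E18.5 was 0.12 without scaling, -0.05 after median centring, 0.03 after quantile normalization and -0.31 after receptor centring; for the Krtap genes it ran from 0.42 to 1.55 over all alternatives. From E14.5 to E16.5 these 4 medians of all genes were 0.29, -0.55, -0.04 and 0.36, and from E14.5 to E18.5 they were 0.51, -0.51, 0.01 and 0.14. The number of Krtap genes above background at E14.5, 0 on both arrays, was 1 counting any array and 0 to 1 with 1 array left out. At E16.5 the 5 became 2 at the 99th percentile of the receptors and 8 counting any array, and 5 to 6 with 1 array left out. At E18.5 the 4 became 1 and 22, and 4 to 11 with 1 array left out. Signals near background limit most members: 15 of 38 were never above it.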

Other observations

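3 of the other measured genes of the chromosome 16 cluster, which carry no Krtap symbol, are given here, chosen after their values were seen. Gm10229, which lies between Krtap22-2 and Krtap6-5 among the genes with a probeset, read 190, 75.5 and 29 at E18.5 and 8.01, 2.86 and 6.37 at E16.5, and rose by 2.13 ± 0.51 (SE, limma adjusted p = 0.0237). That call ended when any 1 E16.5 array or E18.5 replicate 1 or 2 was left out (adjusted p from 0.0509 to 0.0835) and after quantile normalization (0.0681). Its E14.5 arrays read 22.6 and 59.5, the second above background. Gm10228, the next gene with a probeset, read 14.6, 22.4 and 20.6 at E18.5 and at most 2.05 before; it was called (1.02 ± 0.26, limma adjusted p = 0.0282) but lay below background on all 8 arrays, and the call ended when any 1 E16.5 array or E18.5 replicate 2 was left out (0.0611 to 0.103). Under median centring, quantile normalization and receptor centring its change was 0.85, 0.71 and 0.59, and not called (0.064, 0.112 and 0.145). 2310061N02Rik, between Krtap26-1 and Krtap13-1, read 44.2, 34.1 and 110.2 at E18.5 and 30.3, 20.9 and 47.9 at E16.5, with overlap and no call (limma adjusted p = 0.344). Gm10229 was highest on E18.5 replicate 1 and 2310061N02Rik on replicate 3.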
